A study of Mus musculus with 22 samples.

Results

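Microglia of female and male C57BL/6J mice were compared at 96 to 104 weeks of age, called 104 weeks or aged here. The comparison rests on 6 of the 22 libraries of the series, 3 from aged females and 3 from aged males, chosen by the sex and age in their labels. The other 16 libraries are 3 young adult females and 3 young adult males (6 to 10 weeks, called 8 weeks) and 5 middle-aged females and 5 middle-aged males (50 to 54 weeks, called 52 weeks). All groups are of the same strain, carry the label SPF and were untreated, and all cells were sorted from whole brain as CD11b+ CD45low Lin-, so cells outside that gate were not measured. The labels name no genetic change and do not say whether a library holds the cells of 1 mouse. If libraries share mice, p-values cover the technical spread alone. The aged libraries held 17665819 to 23625213 reads. They are named by sex and replicate number, and values are listed in the order female 1, 2 and 3 and male 1, 2 and 4. A normalized count is a read count divided by the size factor of its library. It can be set side by side between libraries but not between genes, since it is not corrected for gene length.

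Microglia are the resident macrophages of the brain. In the healthy tissue they survey their surroundings with receptors such as P2ry12 and Cx3cr1, and they live on signals through the receptor for colony-stimulating factor 1. Near damage, myelin debris or amyloid they take up a disease-associated state, in which lipid-handling genes such as Apoe and Lpl, chemokines and phagocytic receptors are raised, and a separate state marked by interferon-stimulated genes is also known in old brain.

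The libraries carried the sex of their labels. The 4 Y-linked genes tested had at most 3.36 normalized counts in any aged female and at least 187 in each aged male, and all 12 markers used to check the cell type were present in each library. On principal components of the 6 aged libraries, aged male 1 stood apart on the first (29.3% of the variance) and aged female 1 on the second (21%). Neutrophil granule transcripts were high in aged female 1, aged male 1 and aged male 4. S100a9, a neutrophil calcium-binding protein, had 639, 1.15 and 0 normalized counts in females and 1000.2, 0.987 and 1086 in males, and Ltf, lactoferrin, had 402, 1.15 and 2.24 normalized counts in females and 747, 0.987 and 1438 in males. The 2 sexes thus each held libraries with and without these transcripts. The summed level of the neutrophil list, of which 6 of 14 genes were tested, was 16.8 to 2276 normalized counts in females and 12.8 to 5528 in males.

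Few autosomal genes passed the threshold between aged female and male microglia with 3 libraries a group, and most of their differences were under 2-fold. Females had more transcript of chemokine, growth factor, lipid lipase, lysozyme and complement receptor genes (Ccl4, Csf1, Lpl, Lyz2, C3ar1), and males had more of the endocytic receptor Lrp1, of the adhesion and actin genes Lpp, Tln1 and Fscn1, and of the mitotic kinase gene Bub1. Of 12099 autosomal genes tested 44 passed an adjusted p of 0.05 in limma, which is 0.364%. In females 18 were higher (0.149%) and 26 lower (0.215%). The values of the 3 females and 3 males did not overlap for any of the 44, and 12 of the 18 and 18 of the 26 differed by under 2-fold. Over all autosomal genes tested, all 3 females lay above all 3 males for 7.65% and below them for 7.25%. At an unadjusted p under 0.05, 867 genes were higher (7.17%) and 845 lower (6.98%), and 50.2% of genes had a difference above 0. A further 6 X-linked and 4 Y-linked genes passed and are not described here. In bulk samples of sorted cells, fewer cells of a type and less RNA per cell cannot be told apart.

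How many genes passed depended on single libraries. Leaving out aged female 1 left 10 calls, 8 of them among the 44, and leaving out aged male 2 left 13, of which 7 were. There were 20 calls without aged male 1 and 88 without aged male 4, of which 13 and 30 were among the 44. When the 6 aged libraries alone set the spread, Kl, Bub1 and Fscn1 passed. Without the 3 libraries that hold neutrophil transcripts 11 genes passed, and Dnmt3b was the 1 of them among the 44. That fit leaves 2 females against 1 male, which is assumed to vary like the other groups. On the recovered reads edgeR called 27 genes, all among the 44. It did not call Kctd9, Dsel, Csf1, Sc5d, Rpusd4, Zfp943, Mmp15, Pcnt, Ercc1, Stab1, Hmha1 and Mtch1, with adjusted p from 0.0513 to 0.0659, nor 5 genes of few reads named with their values below. DESeq2 called 39 of the 44 and further genes, counted in the last section, and so more genes than limma. Its counts within the lists below belong beside that larger number, not beside the limma shares. No gene of the 44 changed direction in any of these fits. Since the sexes did not overlap for these genes, leaving out libraries could not have changed it.

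**Figure D1:**
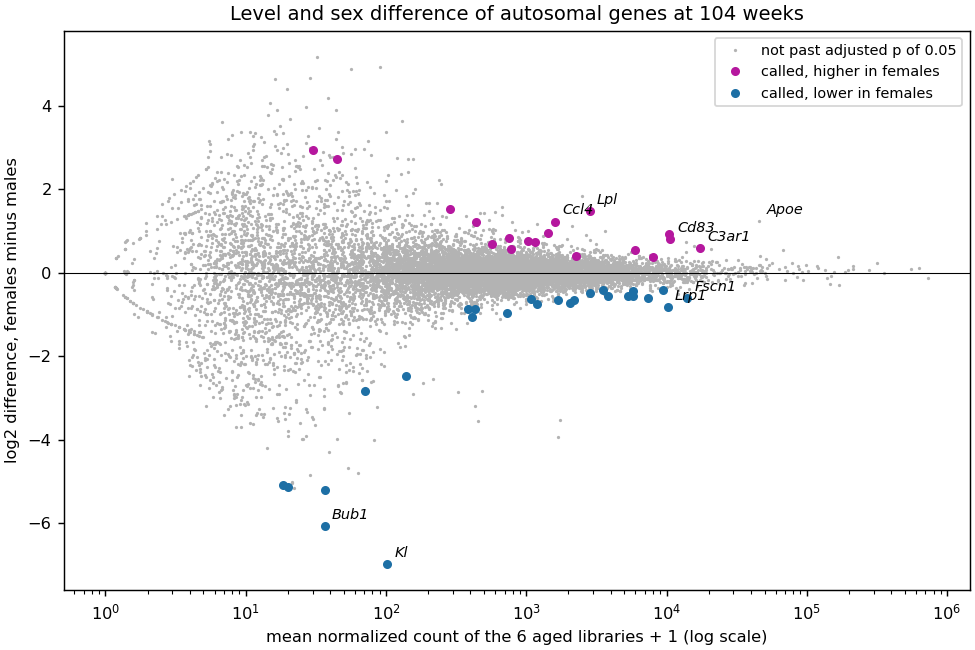
Each point is an autosomal gene, placed by its mean normalized count over the 6 aged libraries plus 1 (log axis) and by its log2 difference between females and males. The 18 genes called higher and 26 called lower in females are coloured, and most lie within 1 log2 unit of 0 at mid to high levels.

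Among secreted factors, Ccl4, a chemokine that attracts immune cells (chromosome 11, 83662584 to 83664683; coordinates are those of GENCODE on GRCm38), had 1860.5, 1846 and 3021 normalized counts in females and 1279.6, 803 and 780.5 in males. The log2 difference, females minus males, was 1.23 ± 0.25, adjusted p = 0.0263, or 2.35-fold. Csf1, the growth factor that microglia need to survive (chromosome 3, 107741048 to 107760469), had 1975, 1645 and 2031 normalized counts in females and 1233, 769.7 and 944 in males (0.96 ± 0.22, adjusted p = 0.0455). For both genes the lowest female lay above the highest male, which was aged male 1. Postn, the matrix protein periostin (chromosome 3, 54361109 to 54391037), had 445, 525 and 874 normalized counts in females and 212, 252 and 300.4 in males (1.22 ± 0.24, adjusted p = 0.0263). Aged female 3 was highest for Ccl4 and Postn. The neighbouring chemokine gene Ccl3 had 1109.5, 1173 and 2047 normalized counts in females and 1147, 769.7 and 634 in males and did not pass (0.75 ± 0.28, adjusted p = 0.208), with aged male 1 inside the range of the females. Tnf, the tumour necrosis factor gene, had 178, 155 and 141 normalized counts in females and 0, 44.4 and 77.7 in males (3.37 ± 0.95, adjusted p = 0.107). Its female values lay close together, while aged male 1 had no read. Of 26 cytokine and chemokine genes tested 2 were called higher and 0 lower, with a median difference of 0.43, against 0.000999516 over all autosomal genes. All 3 females lay above all 3 males for 13 of them and below for 1, where 7.65% and 7.25% of all autosomal genes did so and 0.149% were called higher. The call of Ccl4 was lost without any 1 aged library other than aged female 2 or aged male 1 (adjusted p up to 0.0971), that of Csf1 without any 1 aged library other than aged female 2 or aged male 1 (adjusted p up to 0.149) and that of Postn without aged female 3, aged male 1 or aged male 2 (adjusted p up to 0.0892).

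Genes of lipid handling passed in both directions. Lpl, the lipase that frees fatty acids from lipoproteins (chromosome 8, 68880491 to 68907448), had 3393, 3019 and 6171 normalized counts in females and 1984, 1364 and 1058 in males (1.49 ± 0.33, adjusted p = 0.0410, or 2.80-fold). Aged female 3 was highest and aged male 4 lowest, with no overlap. Sc5d, an enzyme of the last steps of cholesterol synthesis that was in none of the lists, had 1106, 933 and 862 normalized counts in females and 443, 579 and 599.6 in males (0.84 ± 0.19, adjusted p = 0.0455). Lrp1, a large receptor that takes up apolipoprotein E particles, was lower in females (chromosome 10, 127538161 to 127621148). It had 7640.1, 7033 and 7413 normalized counts in females and 14635, 11603 and 12958 in males (-0.82 ± 0.16, adjusted p = 0.0225), so that the highest female lay well below the lowest male. Apoe, which codes for the main lipid carrier of the brain, had 72412, 43522 and 75297 normalized counts in females and 42842, 21846 and 19443 in males. Its difference was of the same size as that of Ccl4 but did not pass (1.23 ± 0.34, adjusted p = 0.104), and aged female 2 lay just above aged male 1. Of 33 lipid and cholesterol genes tested, Lpl was called higher and Lrp1 lower (0.149% and 0.215% over all autosomal genes), with a median difference of 0.17. The call of Lpl was lost without any 1 aged library other than aged female 2 or aged male 1 (adjusted p up to 0.126), that of Sc5d without any 1 aged library other than aged male 4 (adjusted p up to 0.191) and that of Lrp1 without aged female 1 or aged male 1 (adjusted p up to 0.0762).

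Genes of defence and the cell surface, grouped after their values were seen, were also among those higher in females. Lyz2, lysozyme of macrophages (chromosome 10, 117277331 to 117282321), had 16434, 11525 and 12606 normalized counts in females and 9005, 5641 and 6883 in males (0.92 ± 0.19, adjusted p = 0.0263). Reads of Lyz2 and its near copy Lyz1 could be split by the counting, so its level is uncertain. Cd83, a surface protein of activated antigen-presenting cells (chromosome 13, 43784775 to 43803132), had 15531, 11748 and 13440.4 normalized counts in females and 8624, 6822 and 7643 in males (0.82 ± 0.14, adjusted p = 0.00925). C3ar1, the receptor for the complement fragment C3a (chromosome 6, 122847138 to 122856161), had 22888, 18782 and 21487 normalized counts in females and 12412, 14889.5 and 14259 in males (0.60 ± 0.12, adjusted p = 0.0263). In these 3 genes every male value lay below every female value, and aged female 1 was highest. Cd48, a ligand of natural killer cell receptors, and Apobec3, a DNA deaminase that restricts retroviruses, fell outside the rule for named genes and were singled out after their values were seen. Cd48 had 7787, 6513 and 6809 normalized counts in females and 4986, 5109.5 and 4261 in males (0.56 ± 0.10, adjusted p = 0.00814). Apobec3 had 2508, 2522 and 2650.0 normalized counts in females and 1881, 1997 and 1931 in males (0.40 ± 0.08, adjusted p = 0.0263). Neither gene overlapped between the sexes. The call of Lyz2 was lost without aged female 1 or aged male 2 (adjusted p up to 0.142), that of Cd83 without aged female 1 or aged male 2 (adjusted p up to 0.0736) and that of C3ar1 without aged female 1, aged female 3 or aged male 1 (adjusted p up to 0.125). That of Cd48 was lost without aged female 1 (adjusted p of 0.0632) and that of Apobec3 without any 1 aged library other than aged female 2 or aged male 4 (adjusted p up to 0.0679).

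The 250 bases upstream of the RefSeq starts (GRCm38.p6) of 3 of these genes are shown because each holds a motif of a factor known in macrophages. The search covered both strands of all 32851 windows of that length, and 14 of the 18 genes higher and 21 of the 26 lower in females had a window. Csf1 holds a kappa B motif (GGGA and TTTCC with 1 base between, found in 0.356% of windows). Apobec3 has 2 such windows, of which the one shown holds an interferon response motif (GAAA and GAAA with 2 bases between, 2.98%) and the other (chr15:79894773-79895022) does not, and Lyz2 a PU.1 core (AGGAAGT, 7.69%). Each runs 5′ to 3′ on the strand of the gene, which is minus for Csf1 (chr3:107760470-107760719) and Lyz2 (chr10:117282273-117282522) and plus for Apobec3 (chr15:79892158-79892407), with the motif on either strand in capitals.
Csf1: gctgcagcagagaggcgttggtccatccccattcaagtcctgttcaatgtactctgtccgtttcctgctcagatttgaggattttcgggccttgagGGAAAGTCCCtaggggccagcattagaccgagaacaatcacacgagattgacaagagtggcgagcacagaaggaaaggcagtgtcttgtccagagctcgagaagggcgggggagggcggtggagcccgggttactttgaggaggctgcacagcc
Apobec3: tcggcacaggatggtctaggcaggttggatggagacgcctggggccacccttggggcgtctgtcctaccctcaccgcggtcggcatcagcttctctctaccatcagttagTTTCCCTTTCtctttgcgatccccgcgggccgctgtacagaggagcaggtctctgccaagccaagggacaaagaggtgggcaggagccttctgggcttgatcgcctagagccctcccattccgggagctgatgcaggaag
Lyz2: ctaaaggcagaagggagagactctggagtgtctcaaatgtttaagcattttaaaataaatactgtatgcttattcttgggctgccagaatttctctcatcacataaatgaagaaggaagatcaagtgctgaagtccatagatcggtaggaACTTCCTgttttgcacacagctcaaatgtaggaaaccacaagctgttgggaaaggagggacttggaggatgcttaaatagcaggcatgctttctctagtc
The kappa B and the interferon motif were each found for 1 of the 14 higher genes and 0 of the 21 lower genes, and the PU.1 core for 4 and 4. The oestrogen response pattern searched for (AGGTCA and TGACC with 3 bases between, 0.0517% of windows) was found in none of these windows. Nor was the androgen response pattern searched for (AGAACA and TGTTC with 3 bases between, 0.0304%).

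The remaining genes higher in females belonged to none of the lists. Dnmt3b, a DNA methyltransferase (chromosome 2, 153649450 to 153687730), was low in all libraries, with 51.2, 57.4 and 38.1 normalized counts in females and 5.15, 0.987 and 20.9 in males (2.93 ± 0.66, adjusted p = 0.0440). Kctd9 had 76.8, 89.6 and 60.6 normalized counts in females and 6.44, 7.89 and 22 in males (2.72 ± 0.55, adjusted p = 0.0263). Dsel, a dermatan sulfate epimerase, had 465, 380.2 and 421 normalized counts in females and 176, 178 and 98.6 in males (1.52 ± 0.34, adjusted p = 0.0412). These 3 had the largest differences of the 18, and in each of them aged male 4 was farthest from the other males. Slk, a STE20-like kinase, had 1428, 1386 and 1101 normalized counts in females and 790.4, 779.6 and 723 in males (0.76 ± 0.13, adjusted p = 0.00859). The other differences were 0.74 ± 0.14 for Tmem87b, 0.69 ± 0.15 for Rpusd4, a mitochondrial pseudouridine synthase, 0.58 ± 0.13 for Zfp943 and 0.37 ± 0.08 for Mfsd1, a transporter of lysosomes, with adjusted p between 0.0258 and 0.0455. The call of Dnmt3b was lost without any 1 aged library other than aged male 4 (adjusted p up to 0.137) and that of Kctd9 without any 1 aged library other than aged female 3 or aged male 4 (adjusted p up to 0.0967). That of Dsel was lost without any 1 aged library (adjusted p up to 0.142) and that of Slk without aged female 1 (adjusted p of 0.0629). edgeR did not call Dnmt3b (adjusted p = 0.127). Tmem87b, Rpusd4, Zfp943 and Mfsd1 passed in 1 to 3 of the 6 fits that lack 1 aged library.

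**Figure D2:**
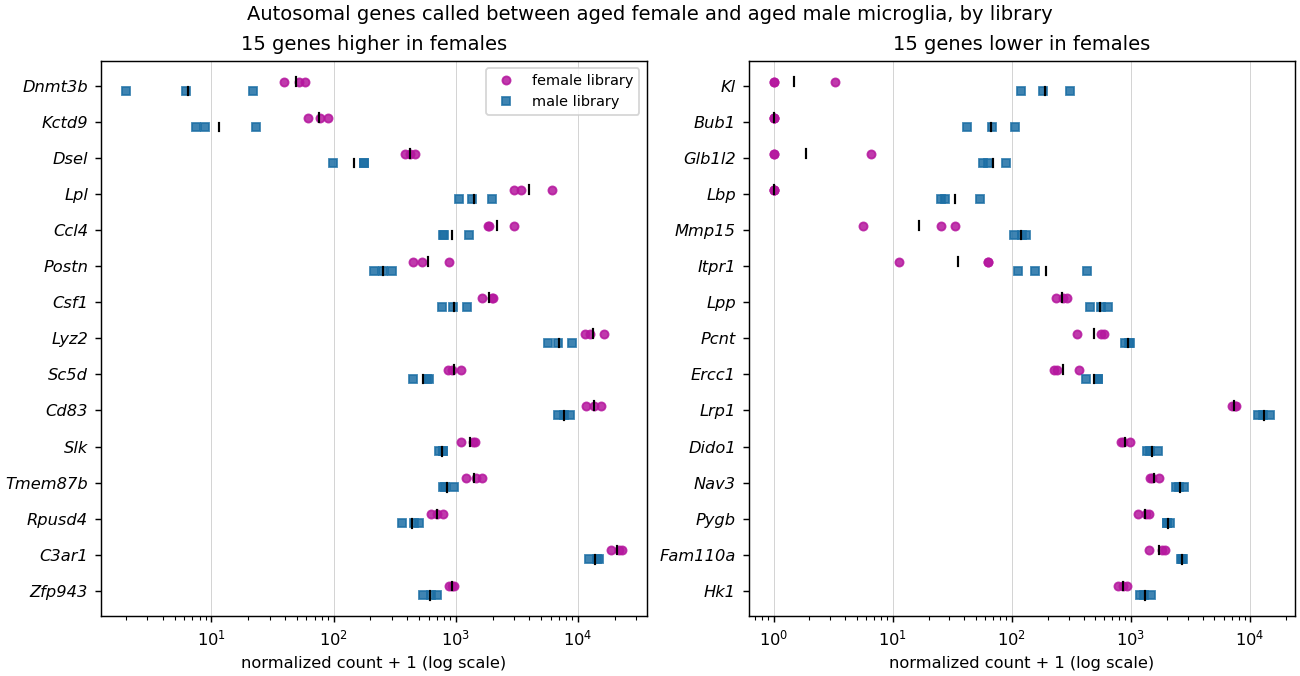
Normalized count plus 1 (log axis) of the 15 genes higher and 15 lower in females with the largest differences under the naming rule, which leaves out clones. A circle marks each female and a square each male library, with a black bar at the geometric mean of each sex. The rule admits only genes whose groups do not overlap. Kl, Bub1, Lbp and Glb1l2 are near 0 in females.

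Among the 26 genes lower in females were several with known roles in adhesion or the cytoskeleton, grouped after their values were seen. Lpp, a protein of focal adhesions (chromosome 16, 24393507 to 24992578), had 268, 288 and 234 normalized counts in females and 642, 453 and 565 in males (-1.06 ± 0.18, adjusted p = 0.00807). Nav3, which binds microtubule ends (chromosome 10, 109681259 to 110456204), had 1704, 1456 and 1508 normalized counts in females and 2369, 2801 and 2525 in males (-0.72 ± 0.14, adjusted p = 0.0195). For both, the highest female lay well below the lowest male. Tln1, talin, which ties integrins to actin, and Fscn1, fascin, which bundles actin, fell outside the naming rule and were singled out after their values were seen. Tln1 had 5434, 6500.0 and 5519.7 normalized counts in females and 8093, 9034 and 9506 in males (-0.61 ± 0.12, adjusted p = 0.0259) and Fscn1 had 10768, 11048 and 11743 normalized counts in females and 16981, 17321 and 16678 in males (-0.60 ± 0.13, adjusted p = 0.0303). The 3 values of Fscn1 lay close together within each sex. Among signalling genes outside that rule, Csk, which restrains Src kinases, differed by -0.49 ± 0.10, Sipa1, which switches off the GTPase Rap, by -0.43 ± 0.10, and Hmha1 by -0.41 ± 0.09, with adjusted p of 0.0263, 0.0412 and 0.0485. No list of adhesion genes was set up, so no count over such genes is given. The call of Nav3 was lost without aged male 2 (adjusted p of 0.0656), that of Tln1 without aged female 1, aged female 3 or aged male 2 (adjusted p up to 0.123) and that of Fscn1 without any 1 aged library other than aged female 3 or aged male 4 (adjusted p up to 0.125). The call of Lpp held in each of the 6 fits that lack 1 aged library (adjusted p up to 0.0409), Csk passed in 2 of them, and Sipa1 and Hmha1 in 0.

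A further set has known roles in the nucleus and cell division. Bub1, a kinase of the spindle checkpoint (chromosome 2, 127801122 to 127831865), had no read in any aged female and 41.2, 67.1 and 106 normalized counts in males. It was at least 60.1-fold higher in males, with 3 reads over the female group as the floor (adjusted p = 0.00266). Pcnt, pericentrin of the centrosome, had 352, 589 and 562 normalized counts in females and 963, 988 and 894 in males (-0.95 ± 0.21, adjusted p = 0.0383). Dido1, a chromatin protein, had 856, 976 and 832 normalized counts in females and 1683, 1434 and 1371 in males (-0.75 ± 0.16, adjusted p = 0.0275), and Ercc1, part of a DNA repair nuclease, had 224, 237 and 363 normalized counts in females and 530.4, 528 and 422 in males (-0.87 ± 0.19, adjusted p = 0.0377). Numa1, which gathers microtubules at spindle poles and was singled out after its value was seen, differed by -0.56 ± 0.12, adjusted p = 0.0351. Other proliferation genes had low reads. Mki67, the gene of the Ki-67 antigen, had 9.44, 0 and 25.8 normalized counts in females and 33.5, 103 and 319 in males (-4.0 ± 1.01, adjusted p = 0.0817), and Top2a, a topoisomerase of dividing cells, had 20.2, 18.4 and 95.3 normalized counts in females and 251, 172 and 371 in males (-2.89 ± 0.95, adjusted p = 0.164). Aged male 4 was highest and aged female 2 lowest for both. Kif11, a mitotic motor, was read in aged female 3 alone among females, with 0, 0 and 43.7 normalized counts in females and 113, 68.1 and 92.8 in males (-4.67 ± 1.28, adjusted p = 0.0998). Of 31 proliferation genes tested Bub1 was called lower (0.215% of all autosomal genes) and none higher, and the median difference was -0.88. The females lay below all males for 12 (over all autosomal genes, 7.25%), and aged male 4 held the highest value for 17. Aged male 4 also held the highest value of all 6 neutrophil genes tested, and the part of those cells in the proliferation values was not tested beyond the fit without the 3 libraries with neutrophil transcripts, where the median was -0.25 and 0 members were called. The call of Bub1 held in each of the 6 fits that lack 1 aged library (adjusted p up to 0.0215). The call of Pcnt was lost without aged female 1, aged male 1 or aged male 2 (adjusted p up to 0.196) and that of Dido1 without any 1 aged library other than aged female 2 or aged male 4 (adjusted p up to 0.125). That of Ercc1 was lost without any 1 aged library other than aged female 3 or aged male 4 (adjusted p up to 0.166) and that of Numa1 without any 1 aged library other than aged female 3 (adjusted p up to 0.123). The list's median was -0.50 without aged female 1. At 8 and 52 weeks the median between the sexes was -0.47 and -0.99. There 3 and 4 members were called lower (8.31% and 11.1% of all autosomal genes) and 1 and 2 higher (7.88% and 10.6%). The change with age passed for 0 members.

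Metabolic enzymes and a few genes read mainly in males complete the genes lower in females. Hk1, hexokinase, the first step of glucose use (chromosome 10, 62268855 to 62379908), had 934, 776 and 849 normalized counts in females and 1279.6, 1186 and 1479 in males (-0.62 ± 0.13, adjusted p = 0.0263), and Pygb, which breaks down glycogen, had 1145, 1428 and 1348 normalized counts in females and 1999, 2144 and 2014 in males (-0.66 ± 0.14, adjusted p = 0.0263). Fam110a had 1428, 1814 and 1934 normalized counts in females and 2725, 2627 and 2708 in males (-0.65 ± 0.13, adjusted p = 0.0263). For these 3 genes every female lay below every male. Of 21 glycolysis genes tested Hk1 was the only call, where 0.215% of all autosomal genes were called lower. Pfkfb3, which raises glycolytic flux, lay higher in every female with 4359, 3568 and 3640.2 normalized counts in females and 2197, 2753 and 2994 in males but did not pass (0.55 ± 0.14, adjusted p = 0.0899). Mmp15, a membrane-bound metalloproteinase, had 24.3, 4.59 and 32.5 normalized counts in females and 121, 130.3 and 104 in males (-2.83 ± 0.57, adjusted p = 0.0263), and Itpr1, a calcium channel of the endoplasmic reticulum, had 62, 10.3 and 61.7 normalized counts in females and 426, 155 and 111 in males (-2.46 ± 0.50, adjusted p = 0.0263). Aged female 2 was lowest for both. Lbp, a binding protein for bacterial lipopolysaccharide, had no read in females and 52.8, 24.7 and 26.7 normalized counts in males, at least 28.0-fold higher. Glb1l2 had 0, 0 and 5.61 normalized counts in females and 88.8, 56.2 and 62.6 in males. The scavenger receptor Stab1 (-0.56 ± 0.13, adjusted p = 0.0455), with Mtch1 (-0.40 ± 0.09, adjusted p = 0.0455), Dip2b (-0.55 ± 0.12, adjusted p = 0.0350) and the unnamed genes 2700049A03Rik (-0.86 ± 0.19, adjusted p = 0.0404) and 4930412C18Rik, which had no read in females and 60.5, 35.5 and 18.6 normalized counts in males, make up the rest. The call of Hk1 was lost without any 1 aged library other than aged female 1 or aged male 2 (adjusted p up to 0.0716), that of Pygb without aged female 1, aged male 1 or aged male 2 (adjusted p up to 0.139), that of Fam110a without aged female 1, aged male 1 or aged male 2 (adjusted p up to 0.146) and that of Mmp15 without aged female 2, aged male 1 or aged male 2 (adjusted p up to 0.0845). That of Itpr1 was lost without aged female 2, aged male 1 or aged male 2 (adjusted p up to 0.120), that of Lbp without aged female 1, aged male 1 or aged male 2 (adjusted p up to 0.0785) and that of Glb1l2 without any 1 aged library other than aged female 3 (adjusted p up to 0.175). edgeR called none of Lbp (adjusted p = 0.119), Glb1l2 (0.220) and 4930412C18Rik (0.122), and DESeq2 gave them no adjusted p. Stab1, Mtch1, Dip2b and the 2 unnamed genes passed in 1 or 2 of the 6 fits that lack 1 aged library.

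Kl, klotho, a gene of the choroid plexus and kidney (chromosome 5, 150952607 to 150993817), had 2 reads over the 3 females, in aged female 2, and 305, 118 and 183 normalized counts in males. The ratio of males to females was 243, with an exact 95% interval of 67.0 to 2013 that covers counting error only. The other choroid plexus genes tested did not pass. Ttr, the transthyretin gene, had 1661, 739.7 and 6.73 normalized counts in females and 4342, 2046 and 1665 in males, and Folr1, a folate receptor, had 63.4, 0 and 0 normalized counts in females and 102, 29.6 and 16.2 in males. The summed level of the choroid and ependymal list was 6.73 to 1724 normalized counts in females and 1865 to 4749 in males, with 3 of 6 genes tested and Foxj1 at 0 in all 6 libraries. Aged female 3 had the least and aged male 1 the most of these transcripts. The part of choroid plexus cells in the value of Kl was not tested. The call of Kl was lost without any 1 aged library other than aged female 2 (adjusted p up to 0.125). On the recovered reads edgeR did not call it (adjusted p = 0.143), nor did DESeq2 (0.0940).

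Most disease-associated genes had higher means in aged females, and 3 passed. Of 26 tested 3 were called higher (Lpl, Cd83 and Csf1) and 0 lower, where 0.149% and 0.215% of all autosomal genes were. The median difference was 0.73, and 24 had a difference above 0. All 3 females lay above all 3 males for 17 of 26 (65.4%, against 7.65% of all autosomal genes) and below for 0. The members with the largest differences did not pass. Fabp5, a fatty acid carrier, had 105, 56.3 and 136 normalized counts in females and 51.5, 17.8 and 12.8 in males (1.98 ± 0.63, adjusted p = 0.149). Spp1, osteopontin, had 2621, 2690.1 and 5023 normalized counts in females and 3616, 590.1 and 355 in males (1.85 ± 0.80, adjusted p = 0.294), and aged male 1 lay among the females. Gpnmb had 140.2, 115 and 172 normalized counts in females and 100.4, 13.8 and 37.1 in males (1.87 ± 1.18, adjusted p = 0.499) and Lgals3, galectin-3, had 841, 779.9 and 1306 normalized counts in females and 679.7, 221 and 216 in males (1.57 ± 0.54, adjusted p = 0.177), both lowest in aged males 2 and 4. The receptor genes Clec7a (0.91 ± 0.25, adjusted p = 0.104), Axl (0.99 ± 0.40, adjusted p = 0.256) and Itgax (0.85 ± 0.38, adjusted p = 0.318) and the protease inhibitor gene Cst7 (0.62 ± 0.25, adjusted p = 0.25) were above 0 and did not pass either. Within each sex the level varied widely. Aged female 3 held the highest value for 13 of the 26 and aged female 1 for 8, while aged males 2 and 4 each held the lowest for 11. Leaving out any 1 aged library left the median between 0.55 and 0.88. The calls were 0 without aged female 1 or aged male 2 and 1 without aged female 3 or aged male 4. Without the 3 libraries with neutrophil transcripts the median was 0.73 with 0 calls. The list's direction in aged mice was known before it was set up here, so its median there is no independent evidence. At 8 and 52 weeks the list's median between the sexes was 0.35 and 0.36. There 8 and 10 members were called higher (7.88% and 10.6% of all autosomal genes) and 0 lower. Against 8 weeks the change with age passed for 0 members more positive and 1 more negative (1.49% and 1.35% over all). Against 52 weeks it passed for 3 and 1 (3.8% and 3.46%).

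**Figure D3:**
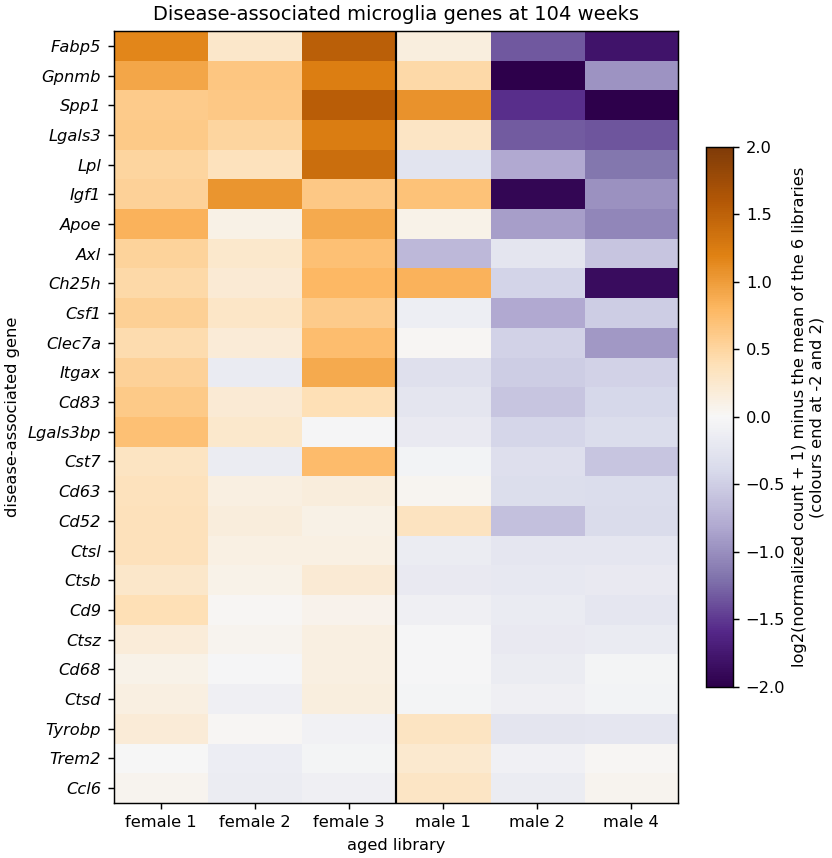
Rows are the 26 disease-associated genes, ordered by their sex difference, and columns the 6 aged libraries; colour is the log2 normalized count plus 1 minus the mean of the 6 libraries. Aged female 3 holds the highest value for 13 genes and aged female 1 for 8, and aged males 2 and 4 the lowest for 11 each.

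Of 38 interferon-stimulated genes 35 had a difference above 0, with a median difference of 0.58, but none passed in limma. At an unadjusted p under 0.05 there were 12 higher and 0 lower (7.17% and 6.98% over all autosomal genes), and DESeq2 called 1 higher and edgeR 0. All 3 females lay above all 3 males for 8 (7.65% over all). Ifi44 had 218, 240.1 and 49.3 normalized counts in females and 0, 26.6 and 2.32 in males (4.94 ± 1.42, adjusted p = 0.111), with aged females 1 and 2 far above the rest. Ifit1 had 747, 994 and 459 normalized counts in females and 161, 292 and 363 in males (1.44 ± 0.72, adjusted p = 0.368). Ifit3, whose reads could be shared with its near copy Ifit3b, had 1762, 2251 and 1112 normalized counts in females and 662, 1175 and 884 in males (0.89 ± 0.42, adjusted p = 0.336). Oasl1 had 216, 232 and 153 normalized counts in females and 18, 154 and 148 in males (1.38 ± 0.74, adjusted p = 0.403), where aged male 1 was lowest and aged female 3 lay below aged male 2. The smallest adjusted p of the list was that of Dhx58, a sensor of viral RNA singled out for it, with 1184, 1209 and 906 normalized counts in females and 520.1, 828 and 615 in males (0.76 ± 0.20, adjusted p = 0.0876). Aged male 1 held the lowest value for 26 of the 38 genes and aged females 1 and 2 the highest for 15 and 17. Without aged male 1 the median was 0.37, and without aged female 1, aged male 1 and aged male 4 it was 0.13.

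Class I antigen presentation genes had higher means in females for 9 of 12. None passed in limma, with 2 called higher by DESeq2 and 0 by edgeR, and a median of 0.35. At an unadjusted p under 0.05 there were 5 higher and 0 lower (7.17% and 6.98% over all autosomal genes). H2-D1, a class I heavy chain, had 20808, 17802 and 12958 normalized counts in females and 10481, 9826 and 10128 in males (0.73 ± 0.19, adjusted p = 0.0894). H2-K1 had 30253, 24689 and 19644 normalized counts in females and 17264, 15578 and 16339 in males (0.58 ± 0.17, adjusted p = 0.118), and the light chain gene B2m had 93488, 81006 and 67601 normalized counts in females and 61412, 52619 and 50962 in males (0.55 ± 0.14, adjusted p = 0.0899). For these 3 genes every female lay above every male, and aged female 1 was highest. H2-D1 passed when aged female 3 was left out (adjusted p = 0.0401), and the median without aged female 1 was 0.17. Reads of class I genes can be split among near copies, so single levels are uncertain. At 8 and 52 weeks the median of the class I list was 0.34 and 0.26. At each of those ages 4 members were called higher (7.88% and 10.6% of all autosomal genes) and 0 lower. The change with age passed for 0 members more positive and 1 more negative against either age (1.35% and 3.46% of all autosomal genes more negative). The 10 class II genes had a median of -0.02, and 0 passed in limma, edgeR or DESeq2 or at an unadjusted p under 0.05. Cd74, the invariant chain, had 5921, 4889.6 and 4717 normalized counts in females and 4169.6, 4622 and 3590.5 in males (0.33 ± 0.21, adjusted p = 0.516), and H2-Aa had 971, 709 and 523 normalized counts in females and 771, 1139 and 601 in males (-0.18 ± 1.11, adjusted p = 0.965), with overlap.

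In the complement list C3ar1 was called higher (0.149% of all autosomal genes) and none lower, and the median of 13 genes was 0.12. C4b, which shares sequence with C4a, had 527, 518 and 553 normalized counts in females and 189, 244 and 194 in males. The groups lay far apart, and the gene did not pass with the spread of all 22 libraries (1.36 ± 0.55, adjusted p = 0.261) or of the 6 aged libraries alone (adjusted p = 0.174). C3 had 279, 354 and 583 normalized counts in females and 385, 396 and 229.6 in males and overlapped. At 8 and 52 weeks the median of the complement list was 0.25 and 0.34, with 4 and 7 called higher (7.88% and 10.6% of all autosomal genes) and 0 lower. Among 40 lysosomal genes 35 had a difference above 0, but the median was 0.14 and none passed in limma. DESeq2 called 3 higher and edgeR 0. At an unadjusted p under 0.05 there were 12 higher and 0 lower (7.17% and 6.98% over all autosomal genes). All 3 females lay above all 3 males for 18 (45%, against 7.65% over all) and below for 0. The cathepsin gene Ctsb had 197392, 173879 and 188914 normalized counts in females and 144444, 143432 and 144744 in males (0.37 ± 0.09, adjusted p = 0.0726), Ctsl had 59665, 49849 and 49766 normalized counts in females and 41564, 39336 and 39304 in males (0.40 ± 0.11, adjusted p = 0.0915), and the membrane protein gene Cd63 had 9534, 8201 and 8368 normalized counts in females and 7632, 5921 and 5840.4 in males (0.44 ± 0.13, adjusted p = 0.124). For each of these 3 genes the lowest female lay above the highest male. The summed level of the list was 2737074 to 2920806 normalized counts in females and 2502343 to 2570744 in males. At 8 and 52 weeks the medians of the lysosomal genes were 0.32 and 0.39, with 23 and 34 called higher (7.88% and 10.6% of all autosomal genes) and 0 lower.

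Homeostatic microglia genes lay between -0.40 and 0.10 in their differences. Of 23 tested none passed in limma, with 1 called lower by DESeq2 and 0 by edgeR. The median was -0.12, and 7 had a difference above 0. At an unadjusted p under 0.05 there were 0 higher and 6 lower (7.17% and 6.98% over all autosomal genes). All 3 females lay below all 3 males for 8 (34.8%, against 7.25% over all) and above for 1. P2ry12, the purine receptor that guides microglial processes, had 179566, 202584 and 186808 normalized counts in females and 172482, 201399 and 188959 in males (0.02 ± 0.10, adjusted p = 0.965), and the fractalkine receptor gene Cx3cr1 had 125490.4, 145044 and 144168 normalized counts in females and 126144, 137619 and 132667 in males (0.06 ± 0.09, adjusted p = 0.810). For both, the values of the sexes overlapped. Tmem119 had 122864, 129169 and 147909.7 normalized counts in females and 144917, 164630.4 and 170312 in males (-0.26 ± 0.09, adjusted p = 0.153), with aged female 3 above aged male 1. Sall1, a transcription factor of microglial identity, had 10451, 11552 and 10997 normalized counts in females and 11964, 14596 and 15355 in males (-0.34 ± 0.11, adjusted p = 0.145), and Selplg, an adhesion ligand, had 147672, 163160.3 and 150152 normalized counts in females and 173377, 186686 and 199573 in males (-0.28 ± 0.08, adjusted p = 0.111). For Sall1 and Selplg every female lay below every male. Lars2, a mitochondrial tRNA ligase, had 10048, 9498 and 9450.4 normalized counts in females and 20737, 10131 and 12143 in males (-0.50 ± 0.18, adjusted p = 0.200), where aged male 1 alone lay far from the rest. At 8 and 52 weeks the median of the homeostatic list was 0.21 and 0.35. There 9 and 14 members were called higher (7.88% and 10.6% of all autosomal genes) and 1 and 1 lower (8.31% and 11.1%). The change with age passed as more negative for 7 members against 8 weeks and 12 against 52 weeks (1.35% and 3.46% over all), and as more positive for 0.

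In 6 further lists limma called 0 genes. These were nuclear factor kappa B and inflammasome genes (16 tested, 1 higher and 1 lower at an unadjusted p under 0.05), senescence and p53 targets (13 tested, 1 and 1), oxidative phosphorylation (38 tested, 0 and 1), immediate early genes (15 tested, 4 and 0), clock genes (17 tested, 1 and 1) and steroid receptors and targets (13 tested, 1 and 3). Over all autosomal genes 7.17% were higher and 6.98% lower at that unadjusted p. For those 6 lists edgeR and DESeq2 also called 0. Heat shock genes (27 tested, 3 and 1) had 0 calls in limma and edgeR and 1 higher in DESeq2. Aged male 1 held the highest value for 30 of the 38 oxidative phosphorylation genes. Of 19 phagocytosis receptors Lrp1 and Stab1 were called lower (0.215% of all autosomal genes) and none higher. At an unadjusted p under 0.05, 4 were higher and 2 lower. The females lay above all males for 5 and below for 3 (7.65% and 7.25% over all).

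Of the markers of other brain and blood cells, Kl was the 1 call in limma, and edgeR and DESeq2 called 0. All 7 border macrophage markers tested had a difference above 0, with a median of 1.15, and none passed (smallest adjusted p 0.412). All 3 females lay above all 3 males for 2 of the 7 (28.6%, against 7.65% over all autosomal genes). Border macrophage markers summed to 389 to 471 normalized counts in females and 124 to 637 in males. Those of monocytes summed to 425 to 869.6 in females and 329 to 1079 in males, and those of T and natural killer cells to at most 8.09, with Cd8a, Cd8b1 and Gzma at 0 in all 6 libraries. The B cell genes Pax5 and Jchain, the oligodendrocyte gene Olig2 and the endothelial gene Cldn5 were also at 0, but other members of their lists were read. B cell markers summed to 934 to 1802 in females and 909 to 942 in males. Endothelial and mural markers summed to 1116 to 2065 and 1535 to 1845, and astrocyte markers to 6103 to 7682 and 5843 to 6635. Oligodendrocyte markers summed to 4338 to 4992 in females and 5009 to 5230 in males, so every female lay below every male. Neuronal markers summed to 109.9 to 198 in females and 156 to 291 in males.

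**Figure D4:**
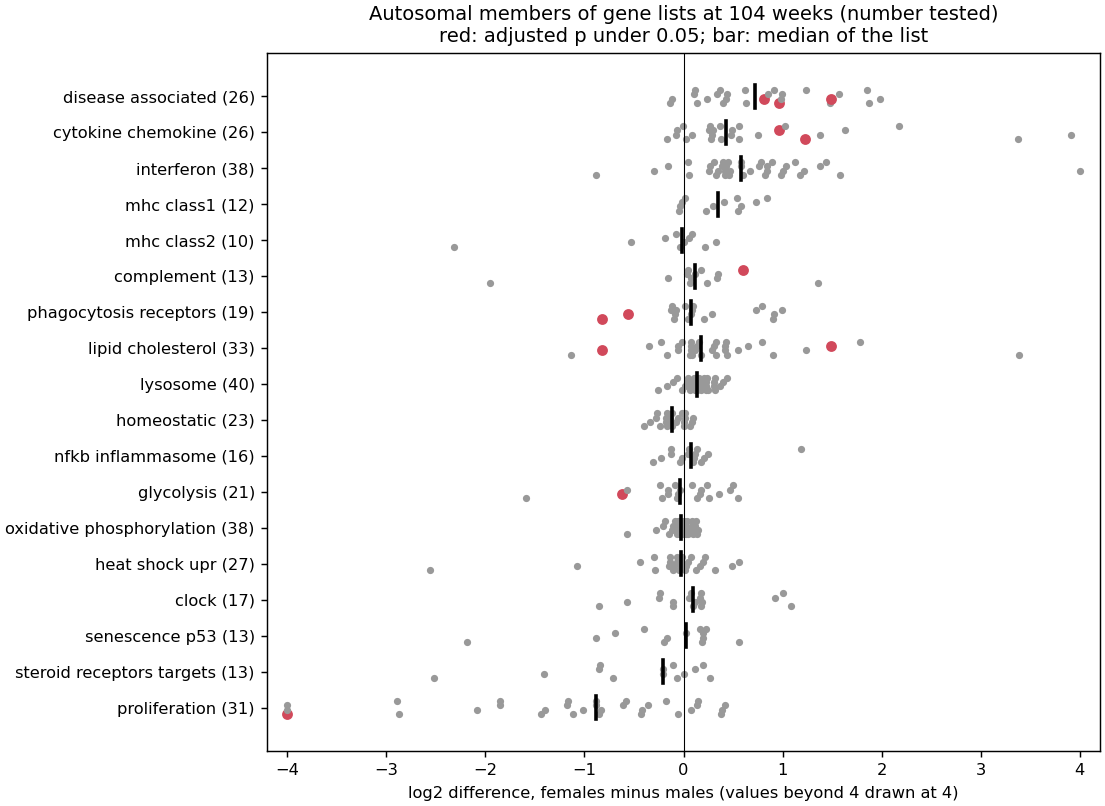
Each point is the log2 difference between aged females and males of an autosomal member of a list, with the number tested in brackets, red where the adjusted p is under 0.05 and a black bar at the median. Disease-associated, interferon and cytokine lists lie to the right of 0 (medians 0.73, 0.58 and 0.43) and proliferation to the left (-0.88), with few red points in any list.

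Whether these sex differences are those of younger mice was tested next as the difference between ages. The male libraries of 8 and 52 weeks lay apart from all other libraries on the first principal component of the series (20.8 to 64.6, against -54.2 to 1.25). The part of that gap in the values of those ages, above and below, was not tested. At 8 weeks 1959 autosomal genes (16.2%) and at 52 weeks 2622 (21.7%) passed between the sexes. The sex difference at 104 weeks differed from that at 8 weeks for 343 genes (2.83%) and from that at 52 weeks for 879 (7.27%). Of the 44 genes called at 104 weeks, 14 differed from 8 weeks, 28 from 52 weeks and 14 from neither. Against 8 weeks 8 of them were more positive (1.49% of all genes) and 6 more negative (1.35%), and against 52 weeks 13 (3.8%) and 15 (3.46%). The comparisons share the 6 aged libraries on which the 44 were chosen, so these shares are not read against the background. With totals made equal, the split between more positive and more negative changed from 180 and 163 to 304 and 70 against 8 weeks, and from 460 and 419 to 719 and 159 against 52 weeks. Against 8 weeks 223 genes passed without aged female 1 and 205 without aged female 3. Without the 3 libraries with neutrophil transcripts 105 passed against 8 weeks and 181 against 52 weeks.

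Lyz2 had the opposite sign in younger mice. Its difference was -0.79 ± 0.19 at 8 weeks, -0.73 ± 0.15 at 52 weeks and 0.92 ± 0.19 at 104 weeks, and the ages differed (against 8 weeks adjusted p = 0.00154, against 52 weeks adjusted p = 2.30e-04). Slk had -0.38 ± 0.13 at 8 weeks, -0.65 ± 0.10 at 52 weeks and 0.76 ± 0.13 at 104 weeks (adjusted p = 0.00207 and adjusted p = 3.99e-05). Ccl4 had -0.57 ± 0.25 at 8 weeks, -0.06 ± 0.20 at 52 weeks and 1.23 ± 0.25 at 104 weeks (adjusted p = 0.00965 and adjusted p = 0.0159). Ccl3, not called at 104 weeks, had -1.15 ± 0.28 at 8 weeks, -0.46 ± 0.21 at 52 weeks and 0.75 ± 0.28 at 104 weeks (adjusted p = 0.0108 and adjusted p = 0.0368). For these 4 genes the mean of females lay below that of males at 8 and 52 weeks and above it at 104 weeks. Against 52 weeks the change of Ccl4 was lost without aged female 3 (adjusted p = 0.0610) or aged male 4 (0.0510), and that of Ccl3 without aged female 3 (0.125), aged male 2 (0.0679) or aged male 4 (0.112). Apoe had -0.42 ± 0.34 at 8 weeks, -0.19 ± 0.27 at 52 weeks and 1.23 ± 0.34 at 104 weeks, and the age difference passed against 52 weeks (adjusted p = 0.0476) but not against 8 weeks (adjusted p = 0.0626). Lpl likewise had 0.67 ± 0.33 at 8 weeks, 0.14 ± 0.25 at 52 weeks and 1.49 ± 0.33 at 104 weeks (adjusted p = 0.0485 against 52 weeks and adjusted p = 0.372 against 8 weeks). Against 52 weeks both were lost without aged female 1, aged female 3, aged male 2 or aged male 4, with an adjusted p up to 0.134 for Apoe and 0.155 for Lpl.

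Other genes kept the same sign at all 3 ages. C3ar1 had 0.59 ± 0.12 at 8 weeks, 0.60 ± 0.09 at 52 weeks and 0.60 ± 0.12 at 104 weeks, and the intervals of the change with age, -0.33 to 0.37 against 8 weeks and -0.31 to 0.32 against 52 weeks, lay around 0. Mfsd1 had 0.54 ± 0.08 at 8 weeks, 0.68 ± 0.06 at 52 weeks and 0.37 ± 0.08 at 104 weeks, Lrp1 -0.78 ± 0.16 at 8 weeks, -0.40 ± 0.12 at 52 weeks and -0.82 ± 0.16 at 104 weeks and Dido1 -1.0 ± 0.16 at 8 weeks, -0.85 ± 0.12 at 52 weeks and -0.75 ± 0.16 at 104 weeks. These 4 were called in the same direction at each age. Of the 18 genes higher at 104 weeks 4 were also among the 953 called higher at 8 weeks (7.88% of all genes) and 2 among the 1281 at 52 weeks (10.6%), while 1 and 5 were called lower there. Of the 26 lower genes 8 were among the 1006 called lower at 8 weeks (8.31%) and 8 among the 1341 at 52 weeks (11.1%), while 2 and 6 were called higher.

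Several genes lower in aged females were called higher in females at 52 weeks, among them Fam110a, Pygb, Hk1 and Fscn1. Fam110a had 0.41 ± 0.13 at 8 weeks, 0.60 ± 0.10 at 52 weeks and -0.65 ± 0.13 at 104 weeks (adjusted p = 0.00350 and adjusted p = 1.30e-04), and Pygb had 0.17 ± 0.14 at 8 weeks, 0.37 ± 0.10 at 52 weeks and -0.66 ± 0.14 at 104 weeks (adjusted p = 0.0195 and adjusted p = 8.12e-04). Hk1 had -0.06 ± 0.13 at 8 weeks, 0.34 ± 0.10 at 52 weeks and -0.62 ± 0.13 at 104 weeks, with the change passing against 52 weeks (adjusted p = 8.18e-04) but not against 8 weeks (adjusted p = 0.0849). Fscn1 had -0.45 ± 0.13 at 8 weeks, 0.42 ± 0.10 at 52 weeks and -0.60 ± 0.13 at 104 weeks, passing against 52 weeks (adjusted p = 4.83e-04). Tmem119, not called at 104 weeks, had 0.18 ± 0.09 at 8 weeks, 0.52 ± 0.07 at 52 weeks and -0.26 ± 0.09 at 104 weeks (adjusted p = 0.0468 and adjusted p = 1.49e-04). Tmem119 passed higher in females at 52 weeks (adjusted p = 4.69e-06). Against 8 weeks its change was lost without aged female 1, aged female 2, aged male 2 or aged male 4 (adjusted p up to 0.113) and with totals made equal (0.110), and that of Pygb without aged female 1 (0.0554). Lars2 had 0.03 ± 0.18 at 8 weeks, 1.63 ± 0.14 at 52 weeks and -0.50 ± 0.18 at 104 weeks, and its change against 52 weeks passed (adjusted p = 2.41e-05).

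**Figure D5:**
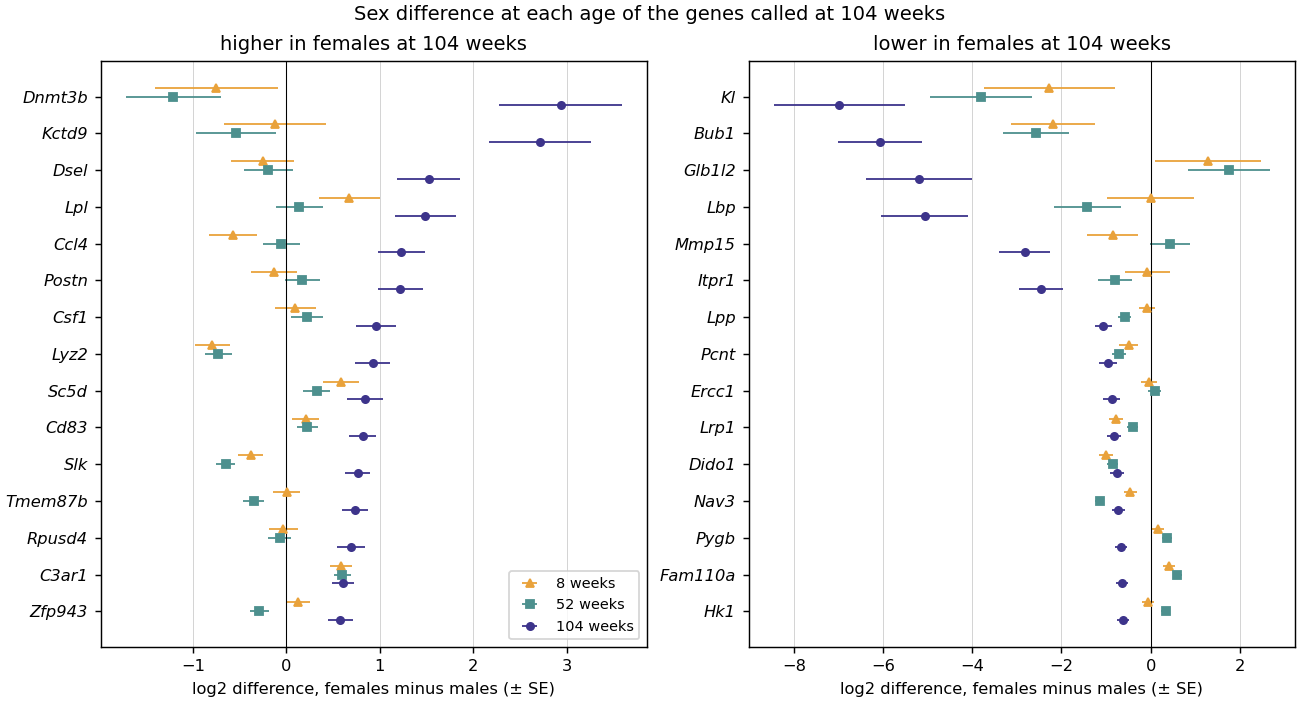
Log2 difference between females and males (± SE of the fit) at 8, 52 and 104 weeks for the 15 genes higher and 15 lower in females at 104 weeks with the largest differences, clones left out. Lyz2 and Slk change from below 0 to above it, C3ar1 lies near 0.60 at each age, and Lrp1 and Dido1 lie below 0 at each age.

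Transcripts of the genes lower in females were longer and richer in GC at the median than those of all genes. The median longest transcript was 3636 bases with 45.3% GC for the 18 higher and 5135 bases with 55.4% GC for the 26 lower genes, of which 25 had a value, against 3341 bases and 49.7% over all autosomal genes. With a trend of length and GC removed from each library 12 genes were called higher and 8 lower. Of the 20, 19 were among the 44, including Lyz2, Cd83, C3ar1, Ccl4, Postn, Cd48, Bub1 and Lpp. Lpl, Csf1, Lrp1, Hk1 and Fscn1 did not pass there, with adjusted p of 0.0630, 0.0575, 0.0602, 0.0814 and 0.0738.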

How the data were processed

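RNA was sequenced from sorted microglia in 22 libraries. Per the submitters' processing notes reads were trimmed with Trim Galore 0.4.3, aligned to mm10 with STAR 2.5.2 and analysed with DESeq2 1.32.0; no source used here names the counting tool or annotation. The authors deposited normalized counts, a signal without length correction, and every value was a whole read count divided by 1 factor per library (within 0.01 reads). Genes with at least 10 in 3 or more libraries were kept (12552 of 18072). A log2 of the value plus 1 was fitted with limma 3.58.1 (R 4.3.3, two-sided) as 6 group means over all libraries, with Benjamini-Hochberg adjustment over all genes tested. Named genes were up to 15 called, non-overlapping genes per direction with a mean of at least 20, excluding clones, then the leading members of lists and a set of known microglial genes. The comparison, lists and rules were chosen with earlier results of these data known. Alternatives were other pseudocounts, filters, scalings and libraries, edgeR 4.0.16 and DESeq2 1.42.0 on the recovered reads. The fits without middle-aged female 2, without the neutrophil-bearing libraries and with the length and GC trend removed were added after seeing the data. The fit was also run on simulated counts with known changes, drawn independently for each library. Those held no outlying libraries and no transcripts of other cells, so the run does not bear on calls that depend on them. Gene positions are from GENCODE M21.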

Additional observations from a re-analysis of the deposited data

Results flagged for a closer look

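The sex difference at 104 weeks was set against that at 8 weeks and at 52 weeks in the limma fit of all 22 libraries. Most of the genes named above whose difference between ages passed the threshold are given here. The lists do not hold every one of the 6 and 15 genes lower at 104 weeks that passed against 8 and 52 weeks. Each value is the log2 difference between females and males at 104 weeks minus that at the other age, with the adjusted p. The comparisons share the 6 aged libraries, and for the genes called at 104 weeks they were made on genes chosen there.

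Against young adults the difference had moved towards females at 104 weeks for Dnmt3b at 3.69 (adjusted p = 0.0324), Kctd9 at 2.85 (adjusted p = 0.0461), Ccl3 at 1.90 (adjusted p = 0.0108), Ccl4 at 1.80 (adjusted p = 0.00965) and Dsel at 1.77 (adjusted p = 0.0442). Next were Lyz2 at 1.72 (adjusted p = 0.00154), Postn at 1.35 (adjusted p = 0.0342), Dhx58 at 1.23 (adjusted p = 0.0179), Slk at 1.14 (adjusted p = 0.00207) and Apobec3 at 0.52 (adjusted p = 0.0150). Against young adults it had moved towards males for Glb1l2 at -6.49 (adjusted p = 0.0369), Fam110a at -1.06 (adjusted p = 0.00350), Lpp at -0.98 (adjusted p = 0.0386), Pygb at -0.83 (adjusted p = 0.0195) and Mtch1 at -0.69 (adjusted p = 0.00543). Next were Selplg at -0.44 (adjusted p = 0.0342) and Tmem119 at -0.44 (adjusted p = 0.0468).

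Against middle age it had moved towards females for Dnmt3b at 4.15 (adjusted p = 0.00355), Tnf at 4.11 (adjusted p = 0.0387), Kctd9 at 3.26 (adjusted p = 0.00539), Dsel at 1.71 (adjusted p = 0.0153) and Lyz2 at 1.65 (adjusted p = 2.30e-04). Next were Apoe at 1.42 (adjusted p = 0.0476), Slk at 1.41 (adjusted p = 3.99e-05), Lpl at 1.35 (adjusted p = 0.0485), Ccl4 at 1.29 (adjusted p = 0.0159) and Ccl3 at 1.21 (adjusted p = 0.0368). Then followed Tmem87b at 1.09 (adjusted p = 8.18e-04), Postn at 1.05 (adjusted p = 0.0389), Zfp943 at 0.87 (adjusted p = 0.00252), Apobec3 at 0.83 (adjusted p = 3.99e-05) and Dhx58 at 0.81 (adjusted p = 0.0497). Smaller changes were those of Rpusd4 at 0.76 (adjusted p = 0.0177) and Cd83 at 0.59 (adjusted p = 0.0487). Against middle age it had moved towards males for Glb1l2 at -6.95 (adjusted p = 0.00613), Mmp15 at -3.26 (adjusted p = 0.00735), Lars2 at -2.13 (adjusted p = 2.41e-05), Fam110a at -1.25 (adjusted p = 1.30e-04) and Fscn1 at -1.03 (adjusted p = 4.83e-04). Next were Pygb at -1.03 (adjusted p = 8.12e-04), Hk1 at -0.96 (adjusted p = 8.18e-04), Ercc1 at -0.96 (adjusted p = 0.0154), Tln1 at -0.88 (adjusted p = 0.00108) and Numa1 at -0.85 (adjusted p = 0.00144). Then followed Tmem119 at -0.78 (adjusted p = 1.49e-04), Stab1 at -0.77 (adjusted p = 0.00476), Selplg at -0.69 (adjusted p = 2.25e-04), Dip2b at -0.61 (adjusted p = 0.0136) and Mtch1 at -0.52 (adjusted p = 0.00722). Smaller changes were those of Csk at -0.51 (adjusted p = 0.0136), Sall1 at -0.50 (adjusted p = 0.0244) and Sipa1 at -0.39 (adjusted p = 0.0493).

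Both comparisons set the aged mice against groups whose male libraries lay apart from all other libraries on the first principal component, and the part of that gap in these values was not tested.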

How the results depend on the processing

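Of the 44 calls at 104 weeks, all had the same direction under the 19 alternatives and none stayed past the threshold in all of them. Leaving out libraries or changing the pseudocount or filter could not reverse a gene without overlap between the sexes. The number of calls was 27 with edgeR (11 higher, 16 lower), 185 with DESeq2 (95 and 90), 3 with only the 6 aged libraries fitted, 6 without middle-aged female 2 and the first library of each aged sex, 11 without aged female 1, aged male 1 and aged male 4, 20 with the length and GC trend removed, and 10 to 88 without 1 aged library. Other pseudocounts, filters and scalings gave 41 to 53. The change against 8 weeks, 343 genes, became 680 with DESeq2, 202 and 105 without those sets of 3 libraries, 674 with the trend removed (149 more positive, 525 more negative) and 205 to 333 without 1 aged library. The change against 52 weeks, 879 genes, became 555 and 181 without those sets, and with the trend removed 276 were more positive and 523 more negative. The labels share the replicate numbers 1 and 2 between the aged groups. Deviations of same-numbered libraries correlated by 0.0116 and 0.0310, above those of all other female and male pairs (-0.0223 to 0.00956). These small values do not decide whether the numbers mark pairs, and the main fit did not take them as pairs. With a replicate block there were 13 calls, and 196 and 562 genes changed against 8 and 52 weeks. The differences of 4 named genes that had not passed changed sign. H2-Aa was 0.032 with the replicate block and -0.41 to 0.063 without 1 aged library, and C3 was -0.058 to 0.47 without 1 aged library. P2ry12 was -0.011 with equal totals, -0.0040 and -0.050 without the sets of 3 libraries, -0.12 with the trend removed and -0.043 to 0.069 without 1 aged library. Ltf, a neutrophil gene, went from -3.19 (adjusted p = 0.528) to 0.41 without aged female 1, aged male 1 and aged male 4. The cause of these changes was not tested. With 3 libraries a group and 17665819 to 23625213 reads in each, genes of few reads, such as the proliferation genes, had differences with wide errors, and a difference that did not pass is not shown to be absent.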
